A study of Mus musculus with 6 samples.

Results

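The genes described here are 37 genes of G2 and mitosis, whose products take a cell from the end of DNA replication through chromosome segregation to the separation of the daughter cells. They were chosen by symbol, with earlier results of these data known. A probe set is a set of array probes that reports 1 transcript. All probe sets were taken whose platform annotation names exactly 1 gene, that gene being on the list. This gave 79 probe sets for 36 of the 37 genes, among 45037 probe sets and 18193 genes tested. Ccnb1, which encodes cyclin B1, was not analysed here. Each gene is described at the brightest of its probe sets, the one with the highest mean over all samples, unless stated otherwise.

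Total RNA of whole pancreas came from 3 samples of mice without Rkip-1 (genotype Rkip-1 KO, written KO) and 3 of wild-type mice (WT), hybridised to 1 Affymetrix array each. All mice were 8 weeks old, untreated as far as the labels say, and from a single colony on a C57BL/6 background. Rkip-1, encoded by Pebp1, is an inhibitor of Raf-1 kinase, and the series asks, by its title, how it bears on the multiplication of beta cells. The labels do not name the part of the gene that was removed, the sex or litter of the mice, a batch, or the number of mice behind a sample, so that p-values measure the spread between these samples. Values are on the log2 scale. Pebp1 measured 5.89, 6.50 and 5.71 in KO replicates 1, 2 and 3 and 9.81, 10.01 and 9.81 in WT replicates 1, 2 and 3, so every sample matched its label. The tissue matched too, with a mean over 8 acinar markers of 13.01 to 13.23 in every sample.

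Passage from G2 into mitosis is driven by the kinase Cdk1 bound to cyclin A2 or a B-type cyclin and released from inhibition by Cdc25 phosphatases, with help from Plk1 and the Aurora kinases. The spindle checkpoint then holds back Cdc20 and the anaphase-promoting complex, a ubiquitin ligase that takes ubiquitin from Ube2c, until every kinetochore is attached. Many of these genes are transcribed together in late cell cycle under Foxm1 and the MuvB complexes, and are silent in resting cells. In the adult pancreas few cells of any type divide, so in RNA of the whole organ these transcripts stand for a small minority of cells. Fewer dividing cells and less RNA per dividing cell cannot be told apart in such samples, nor can the type of the dividing cell.

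The promoters of the genes on which the results turn are shown because this class of genes is known for a shared element, the cell cycle genes homology region (CHR), often found with CCAAT boxes. Sequences are from RefSeq on mouse build GRCm38.p6, which held 32 promoters for 30 of the 36 measured genes. Each runs 5′ to 3′ over the 150 bases before the annotated start, with matches to TTTGAA (CHR) and to CCAAT on either strand in capitals. On the other strand these read TTCAAA and ATTGG.
Mki67, chr7:135716380-135716529, minus strand: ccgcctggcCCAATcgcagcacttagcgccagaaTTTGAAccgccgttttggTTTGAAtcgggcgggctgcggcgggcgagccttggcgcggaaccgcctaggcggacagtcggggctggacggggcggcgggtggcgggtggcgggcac
Ube2c, chr2:164769779-164769928, plus strand: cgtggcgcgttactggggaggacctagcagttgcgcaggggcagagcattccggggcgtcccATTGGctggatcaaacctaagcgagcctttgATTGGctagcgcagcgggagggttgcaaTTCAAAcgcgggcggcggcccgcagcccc
Cdk1, chr10:69352913-69353062, minus strand: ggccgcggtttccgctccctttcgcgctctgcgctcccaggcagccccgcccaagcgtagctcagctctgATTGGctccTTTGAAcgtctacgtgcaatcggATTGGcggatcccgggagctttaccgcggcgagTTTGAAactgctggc
Cdc20, chr4:118437344-118437493, minus strand: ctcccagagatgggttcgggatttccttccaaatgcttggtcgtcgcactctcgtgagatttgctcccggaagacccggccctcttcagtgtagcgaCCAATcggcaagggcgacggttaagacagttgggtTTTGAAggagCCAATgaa
Top2a, chr11:99024190-99024339, minus strand: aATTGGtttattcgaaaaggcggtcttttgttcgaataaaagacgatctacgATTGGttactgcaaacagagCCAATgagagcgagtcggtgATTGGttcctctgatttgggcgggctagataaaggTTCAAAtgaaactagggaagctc
Ccnb2, chr9:70421555-70421704, minus strand: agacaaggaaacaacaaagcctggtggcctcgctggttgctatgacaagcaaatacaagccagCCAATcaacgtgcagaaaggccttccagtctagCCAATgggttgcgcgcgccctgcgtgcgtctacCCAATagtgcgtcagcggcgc
Birc5, chr11:117849087-117849236, plus strand: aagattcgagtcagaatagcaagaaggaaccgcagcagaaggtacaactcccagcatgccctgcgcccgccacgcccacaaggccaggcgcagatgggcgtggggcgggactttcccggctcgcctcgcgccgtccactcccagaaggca
Within 300 bases, from 250 before to 50 after the start, 25 of the 32 promoters of the measured genes held TTTGAA, which is 78.1%, against 17.9% of all 32851 promoters in the table. CCAAT was found in 25 of the 32, again 78.1%, against 37.4% of all, and both motifs together in 68.8% against 6.95%. Among all matches in these promoters, 1 pair of the motifs shared a base. The TTTGAA matches began 116 and 98 bases before the start in Mki67, 71 and 15 in Cdk1, and 18 in Cdc20. In Ube2c and Top2a a match on the other strand began 29 and 23 bases before the start. In Ccnb2 the matches lay outside the stretch shown, and Birc5 held neither motif. A match is a string of letters and no evidence of binding.

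Most of the genes were slightly lower in KO, and none passed the threshold. Of the 36 genes, 29 were lower and 7 higher in KO, with a median difference of -0.16 on the log2 scale, where all 18193 genes had a median of -0.00 and 50.2% of them were lower. By limma, 0 of the 36 had an adjusted p under 0.05, against 0.132% of all genes, and the smallest adjusted p was 0.177, for Ccnb2. At an unadjusted p under 0.05, 10 were lower, against 5.58% of all genes, and 0 were higher, against 4.55%. In 8 genes every KO value lay below every WT value, against 7.56% of all genes, and in 0 genes above, against 6.87%. Over the 79 probe sets 56 were lower and 23 higher, with 0 past the threshold against 0.0977% of all probe sets. At an unadjusted p under 0.05, 15 of the 79 were lower, against 4.66% of all probe sets, and 1 was higher, against 4.01%. KO lay wholly below WT in 12, against 6.51%, and wholly above in 3, against 6.97%.

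At the median the differences were larger among the brighter genes. The upper quartile of the table was 4.54 and its median 3.01, and the table has no detection calls, so genes under the quartile may hold mostly background and their differences can be too small. Of the 36 genes 10 had a mean above the quartile, namely Mki67, Top2a, Birc5, Ube2c, Cdc20, Ccna2, Cdca3, Prc1, Plk1 and Foxm1. In these 10 the median difference was -0.39 and 9 were lower, 5 of them at an unadjusted p under 0.05, against 9.68% of all genes above the quartile, and 4 with groups apart, against 12.6%. In the 26 dimmer genes it was -0.13, and 20 were lower. Bright genes as a whole also leaned to lower values in KO, since 61.7% of the 7141 genes above the quartile were lower, with a median of -0.04.

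**Figure D1:**
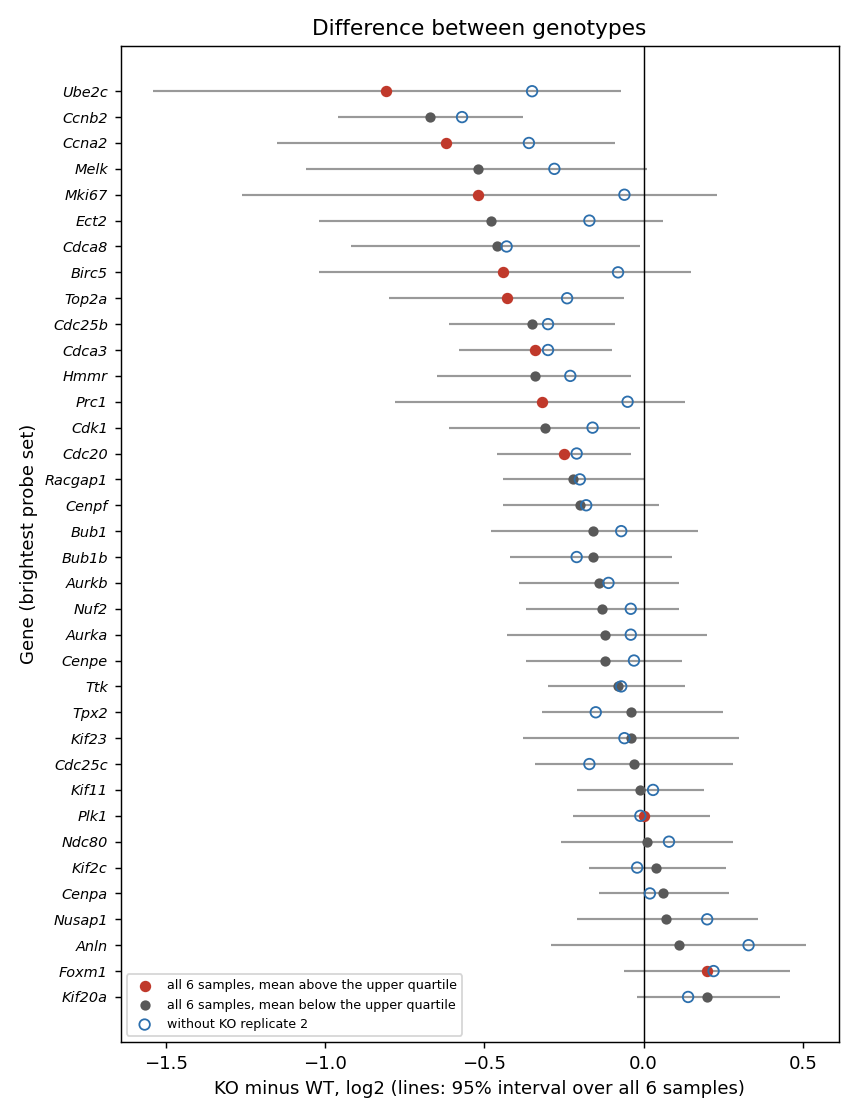
KO minus WT (log2, horizontal axis) for the 36 genes at their brightest probe set. Filled points with lines are the fit of all 6 samples with 95% intervals, red for genes with a mean above the upper quartile of 4.54 and grey for dimmer ones, and open circles leave out KO replicate 2. Ube2c, Ccnb2 and Ccna2 lie farthest to the left, and the open circles of Mki67, Birc5 and Prc1 lie close to 0.

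A single sample, KO replicate 2, held much of the difference. It had the lowest of the 6 values in 23 of the 36 genes and in 7 of the 10 bright ones, where over all genes it was lowest in 16.9%, and in 21.9% of those above the quartile. In 8 genes its distance below the next value exceeded the range of the other 5 samples. In 6 genes, Mki67, Birc5, Ube2c, Ccna2, Ect2 and Melk, it lay at least 1 log2 unit below the WT mean. The median deviation of the 10 bright genes from their own mean over the samples was -0.66 in KO replicate 2, 0.05 and -0.00 in KO replicates 1 and 3, and 0.34, 0.13 and 0.03 in WT replicates 1, 2 and 3. WT replicate 1 stood at the other end, with the highest value in 18 of the 36 genes, where over all genes it was highest in 19.4%. KO replicates 1 and 3 were thus close to WT replicate 3, the lowest of the WT samples. Both samples were picked out with these values in view.

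**Figure D2:**
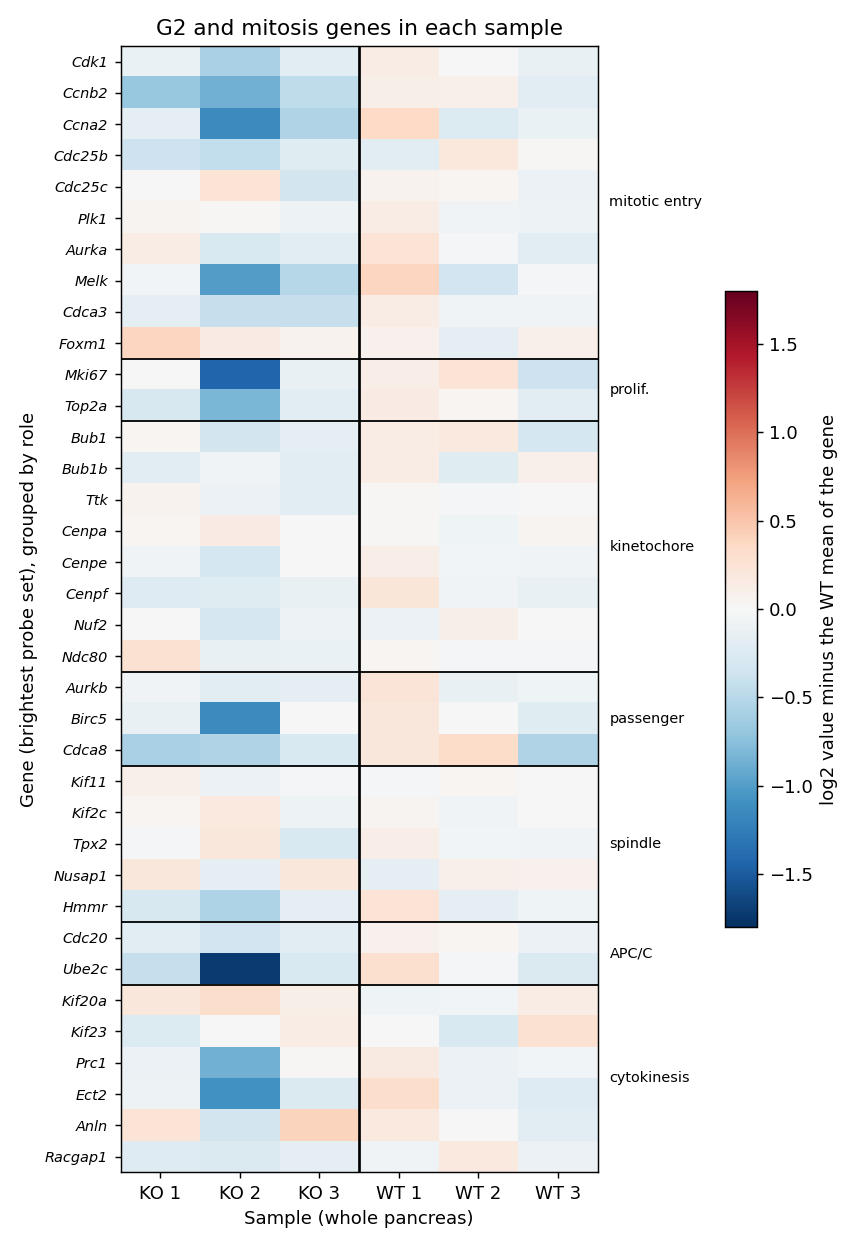
Log2 value minus the WT mean of the gene (colour) for the 36 genes (rows, grouped by role) in each sample (columns). Blue is lower and red higher than the WT mean. The KO 2 column holds the darkest blue cells, at Ube2c, Mki67, Birc5 and Ccna2, and the kinetochore and spindle rows are mostly pale.

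Leaving out KO replicate 2 moved the median difference from -0.16 to -0.10, and that of the 10 bright genes from -0.39 to -0.14, while 29 of 36 genes were still lower, 28 of them the same genes. The number lower at an unadjusted p under 0.05 went from 10 to 2, Ccnb2 and Cdca3, which is near the 4.38% of all genes in the same fit. It was 3 without WT replicate 1, namely Ccnb2, Cdca3 and Cdc25b, with a median difference of -0.09, against 4.84% of all genes, and 6 without WT replicate 2, against 4.3%. With the Xist level as a covariate it was 3, the same genes as without WT replicate 1, against 5.08%. Ccnb2 had an unadjusted p of at most 0.00294 under every alternative, and an adjusted p of 0.111 to 0.558. Xist, an RNA that female cells make, measured 9.11 in KO replicate 2, 9.79 in KO replicate 3, 9.09 in WT replicate 3 and at most 4.43 in the other samples. The 3 samples with a high Xist level also held the 3 lowest Mki67 values, and with the covariate the Mki67 difference was -0.28. The same samples were lowest in some other genes, such as Cdk1 and Ect2, but not in all. In Ube2c the 3 KO samples were lowest, and in Birc5 KO replicates 1 and 2 and WT replicate 3. High Xist was found in KO replicates 2 and 3 but only in replicate 3 of WT, so its level partly goes with genotype. Apart from the fit with the Xist covariate, a part of sex in these values was not tested.

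Mki67, the gene of the proliferation antigen Ki-67, measured 6.08, 4.65 and 5.95 in KO replicates 1, 2 and 3 and 6.20, 6.32 and 5.71 in WT replicates 1, 2 and 3. The groups overlapped, and KO replicates 1 and 3 lay inside the WT range. The difference was -0.52 (95% interval -1.26 to 0.23, adjusted p 0.715), and -0.06 without KO replicate 2. Top2a, the topoisomerase that untangles chromosomes before they part, measured 4.93, 4.40 and 5.03 in KO and 5.37, 5.25 and 5.03 in WT. The groups did not overlap, with KO replicate 3 just below WT replicate 3. Its difference was -0.43 (-0.80 to -0.06, adjusted p 0.505), and -0.24 without KO replicate 2. A dimmer Top2a probe set ran the other way at 0.35, with values of 2.91 to 3.56, and averaged over its 3 probe sets the difference was -0.01.

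Among the genes of mitotic entry, 9 of 10 were lower, and both measured cyclins were among them. Cyclin B2, encoded by Ccnb2, measured 2.88, 2.69 and 3.10 in KO and 3.67, 3.65 and 3.36 in WT. The groups were apart without help from KO replicate 2, and the KO values lay about the table's median, so that the difference of -0.67 (-0.96 to -0.38) can be too small. Ccna2, which encodes cyclin A2, measured 5.17, 4.19 and 4.80 in KO and 5.70, 5.10 and 5.22 in WT. KO replicate 1 lay within the WT range, and the difference was -0.62 (-1.15 to -0.09, adjusted p 0.502), or 1.54-fold lower, and -0.36 without KO replicate 2. A second Ccna2 probe set differed by -0.39.

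Cdk1 measured 4.36, 3.89 and 4.28 in KO and 4.61, 4.49 and 4.35 in WT, a difference of -0.31 (-0.61 to -0.01, adjusted p 0.565) with and -0.16 without KO replicate 2. KO replicate 3 lay just below the lowest WT value and KO replicate 1 just above it. The phosphatase Cdc25b, which activates Cdk1, measured 2.59, 2.52 and 2.74 in KO and 2.76, 3.15 and 2.98 in WT. Its groups were apart by a small step at a level near background, with a difference of -0.35. Cdca3, which helps to degrade the Cdk1 inhibitor Wee1, measured 5.10, 4.86 and 4.85 in KO and 5.41, 5.21 and 5.21 in WT. Here KO replicate 2 did not stand apart, and the difference was -0.34 (-0.58 to -0.10, adjusted p 0.399), and -0.08 with the mean of its 3 probe sets, of which 2 were dim.

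The kinases Plk1 and Aurka differed by less than the spread between replicates. Plk1 measured 4.61, 4.58 and 4.47 in KO and 4.70, 4.50 and 4.47 in WT, and the difference of -0.00 had an interval of -0.22 to 0.21, with either sign among the alternatives. Aurka, the Aurora kinase of the spindle poles, measured 3.07, 2.67 and 2.75 in KO and 3.18, 2.92 and 2.73 in WT, a difference of -0.12 (-0.43 to 0.20) whose sign also changed among the alternatives. In neither gene did the groups part. Melk, a kinase of dividing cells, was at 2.88 in KO replicate 2 and between 3.37 and 4.26 in the other samples. Its difference was -0.52 (-1.06 to 0.01, adjusted p 0.586), and -0.28 without KO replicate 2. Cdc25c differed by -0.03 near background.

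Foxm1, the transcription factor of this gene class, was the bright exception to the lower values. Its brightest probe set measured 9.27, 9.04 and 8.96 in KO and 8.97, 8.72 and 8.98 in WT, a difference of 0.20 (-0.06 to 0.46, adjusted p 0.677), with overlapping groups. KO replicate 2 was not low there. The other 3 Foxm1 probe sets lay at 3.97 to 4.48, 2.67 to 2.93 and 1.96 to 2.32, far below it, with differences of 0.24, -0.03 and 0.01. In the RefSeq gene table Foxm1 overlaps its neighbour Tex52, so the value of the bright probe set is uncertain as a level of Foxm1.

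**Figure D3:**
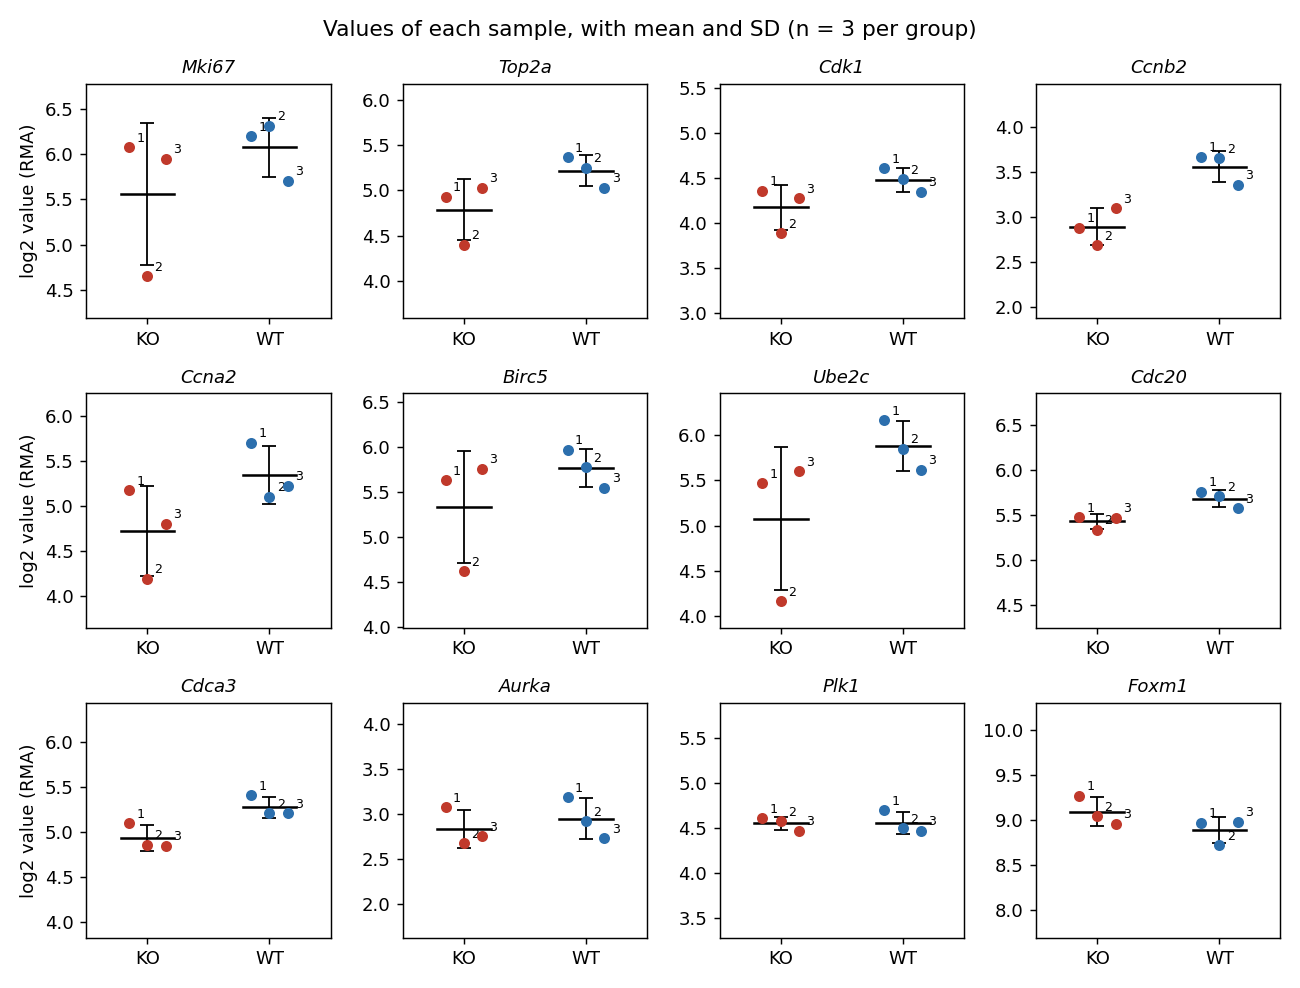
Log2 values (vertical axes, each spanning the same range) of 12 genes in KO (red) and WT (blue), with the replicate number beside each point. Horizontal lines are means and bars are SD (n = 3). KO replicate 2 lies far below the other samples for Mki67 at 4.65, Birc5 at 4.62 and Ube2c at 4.16, while the groups are apart for Ccnb2 and Cdca3 and overlap for Aurka, Plk1 and Foxm1.

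The genes around the anaphase-promoting complex were both lower with groups apart. Ube2c, its ubiquitin-conjugating enzyme, measured 5.47, 4.16 and 5.60 in KO and 6.17, 5.85 and 5.62 in WT. KO replicate 3 was just below WT replicate 3, and KO replicate 2 far below all others. The difference of -0.81, a 1.75-fold lower level (1.05 to 2.90, adjusted p 0.534), was -0.35 without KO replicate 2. Cdc20, the activator held by the checkpoint, measured 5.48, 5.34 and 5.47 in KO and 5.76, 5.71 and 5.58 in WT. Its KO values lay close together, and the difference was -0.25 (-0.46 to -0.04, adjusted p 0.486) with and -0.21 without KO replicate 2. A second Cdc20 probe set differed by -0.70, with 5.11, 4.54 and 5.24 in KO and 5.87, 5.68 and 5.43 in WT, again with groups apart, and the last by -0.10.

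The chromosomal passenger complex corrects faulty attachments and guides cytokinesis. Birc5, its survivin subunit, measured 5.63, 4.62 and 5.76 in KO and 5.97, 5.78 and 5.55 in WT, a difference of -0.44 (-1.02 to 0.15, adjusted p 0.689). As with Mki67, KO replicates 1 and 3 lay within the WT range, and the difference was -0.08 without KO replicate 2. Cdca8, the borealin subunit, showed another order at its brightest probe set, with 4.03, 4.08 and 4.35 in KO and 4.83, 4.95 and 4.08 in WT. Here WT replicate 3 was as low as the KO samples. The difference was -0.46, and it was -0.73 without WT replicate 3 (limma adjusted p 0.111) and -0.30 without WT replicate 2 (limma adjusted p 0.838). The other 2 probe sets differed by -0.16 and -0.28. In the former KO replicate 2 alone was low, with 3.99, 3.33 and 4.07 in KO and 3.97, 3.94 and 3.96 in WT. In the latter the groups were apart, with every value under the table's median. The kinase of the complex, Aurkb, lay near background in every sample, at 2.74, 2.61 and 2.64 in KO and 3.03, 2.66 and 2.72 in WT.

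The kinetochore and checkpoint genes Bub1, Bub1b, Ttk, Cenpa, Cenpe, Cenpf, Nuf2 and Ndc80 all had means under the upper quartile, and 4 of the 8 were under the table's median. Their differences ran from -0.20 for Cenpf, a kinetochore protein, to 0.06 for Cenpa, the centromeric histone, with a median of -0.13. The groups were apart in 0 of the 8, against 7.56% of all genes lower and 6.87% higher, and 0 had an unadjusted p under 0.05, against 5.58% and 4.55%. In a list of 8 genes such shares leave few or no genes to be counted.

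Of the 5 spindle genes, the motors Kif11 and Kif2c and the assembly factors Tpx2 and Nusap1 differed by -0.04 to 0.07. Hmmr, which binds spindle microtubules, measured 3.30, 3.03 and 3.41 in KO and 3.83, 3.43 and 3.51 in WT, with groups just apart and a difference of -0.34 (-0.65 to -0.04, adjusted p 0.515). It was -0.22 without WT replicate 1, and -0.12 with the mean of its 5 probe sets.

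Among the 6 cytokinesis genes the pattern of KO replicate 2 returned in some members only. Prc1, which bundles microtubules at the spindle midzone, was at 3.94 in that sample and at 4.70 to 4.97 in the others, with a difference of -0.32, and -0.05 without it. Ect2, the exchange factor that switches on RhoA for the contractile ring, was at 2.77 there and at 3.60 to 4.18 in the others, with a difference of -0.48, and -0.17 without it. Racgap1, the centralspindlin subunit that recruits Ect2, measured 3.92, 3.89 and 3.97 in KO and 4.09, 4.32 and 4.04 in WT, groups apart by a small step and a difference of -0.22 (-0.44 to 0.00, adjusted p 0.578), or -0.14 without WT replicate 2. Anln, the anillin scaffold of the ring, was higher by 0.11, and by 0.33 without KO replicate 2 at an unadjusted limma p of 0.0345. Kif20a and Kif23, motors of the midzone, lay near background with differences of 0.20 and -0.04.

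Among the 24 genes with more than 1 probe set, all probe sets were lower in 10, none had all higher, and 14 had both signs. Many probe sets were dim, since 38 of the 79 had a mean under the table's median and 12 a mean above the upper quartile. Kif2c shows the spread, with -0.34 and groups apart at 1 probe set, at an unadjusted p of 0.00624, and 0.04 to 0.17 at its other 3.

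Other genes of G2 and mitosis, from a list of 60 of which 58 were measured, leaned the same way by less. Of the 58, 42 were lower, with a median of -0.07, and 10 were lower and 1 higher at an unadjusted p under 0.05, against 5.58% and 4.55% of all genes, with 0 past the threshold, against 0.132%. The smallest adjusted p among them were those of Cenpk, a kinetochore subunit (-0.67), Ube2s, which extends ubiquitin chains for the anaphase-promoting complex (-0.54), Smc4 of condensin (-0.83), and Mad2l1 of the checkpoint (-0.52), with adjusted p of 0.250, 0.315, 0.331 and 0.377. In each the groups were apart. Smc4 was lowest in KO replicate 2 at 3.93, against 4.62 to 5.57 elsewhere, but Ube2s was lowest in KO replicate 1, at 7.14. Without KO replicate 2 the median of the 58 was -0.01 and 34 were lower, 6 of them at an unadjusted limma p under 0.05, against 4.38% of all genes.

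Regulators of cell cycle transcription had a median of -0.04 over 19 measured genes, of which 11 were lower. Cdkn1a, an inhibitor of cyclin-dependent kinases, differed by -0.89, Tfdp1, a partner of E2F factors, by -0.34, and the pocket protein Rbl1 by -0.63, with adjusted p of 0.276, 0.359 and 0.494. In 31 genes of DNA replication and S phase, 24 were lower with a median of -0.15, and -0.11 without KO replicate 2. By limma 0 passed the threshold, against 0.132% of all genes. At an unadjusted p under 0.05, 9 were lower and 1 higher, against 5.58% and 4.55%. Groups were apart with KO lower in 7 and higher in 1, against 7.56% and 6.87%. Without KO replicate 2, 7 were lower at an unadjusted p under 0.05, against 4.38% of all genes. The 16 bright S phase genes had median deviations of -0.1, -0.28 and -0.04 in KO replicates 1, 2 and 3, and 0.32, 0.20 and -0.05 in WT replicates 1, 2 and 3. No difference between these lists and the 36 genes was tested.

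**Figure D4:**
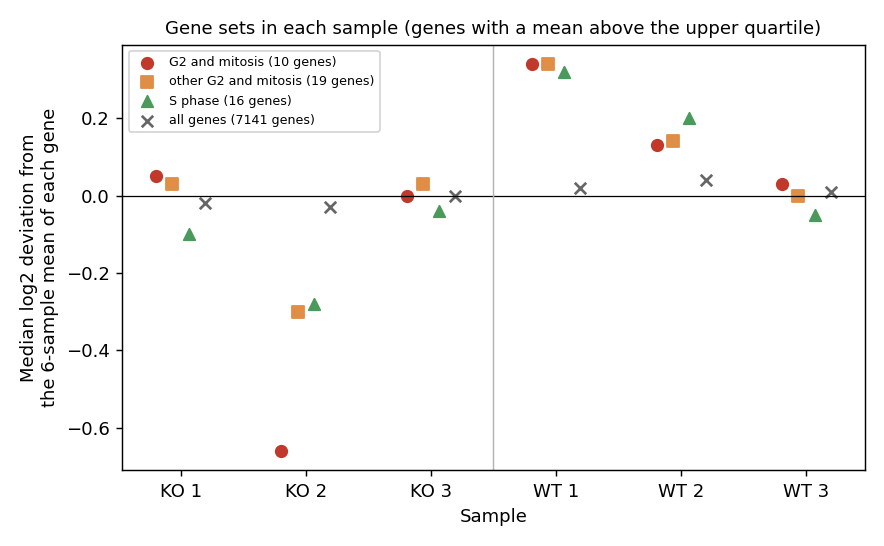
Median log2 deviation of each gene set from the 6-sample mean of its genes (vertical axis) in each sample (horizontal axis), over genes with a mean above the upper quartile. The 10 G2 and mitosis genes are at -0.66 in KO 2 and 0.34 in WT 1, the 19 other G2 and mitosis genes at -0.30 and 0.34, the 16 S phase genes at -0.28 and 0.32, and all 7141 genes between -0.03 and 0.04.

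Summed levels of markers of other cells differed in single samples or between the genotypes. In KO replicate 2 the neutrophil genes S100a8 and S100a9 measured 7.24 and 5.85, against at most 4.43 and 3.49 elsewhere, and the 8 of 9 myeloid markers measured summed to 698 there on the linear scale, against 267 to 509 in the other samples. Lyz2, the brightest of them on average, and Cd14 were also highest in that sample, at 8.1 and 4.21. Csf1r, Cd68 and Itgam lay there within the range of the other samples, and Adgre1 was lowest there, at 3.83. The 14 of 18 lymphocyte, lymph node and spleen markers summed to 151 to 476 in KO and 252 to 896 in WT, and Cd3g, Cd79a, Cd79b, Cr2 and Ccr7 among them had means under the table's median. Ighm, the brightest of them on average, and Jchain weigh most in the higher sums. They differed by -1.35 and -1.47, with overlapping groups. The other markers of this list differed by -0.13 (Coro1a) to 0.24 (Cd3e and Cd4). The 8 stellate cell and fibroblast markers summed to 2976 to 4209 in KO and 4331 to 5659 in WT. Col3a1, the brightest of them, weighs most in these sums. Col1a1, Col1a2, Col3a1 and Postn differed by -0.61, -0.43, -0.5 and -0.82. Lum, Dcn, Pdgfra and Pdgfrb differed by -0.32, -0.19, -0.05 and -0.02. The 6 endothelial markers summed to 106 to 119 in KO and 121 to 123 in WT. The 5 of 6 duct markers measured had higher sums in KO, at 623 to 771 against 482 to 511 in WT. Muc1, the brightest of them, weighs most in these sums and differed by 0.59 (limma adjusted p 0.177). Sox9 differed by 0.52 (limma adjusted p 0.389) and Krt7 by 0.24, while Cftr differed by 0.02 and Krt19 by -0.26. The 4 of 8 erythroid markers summed to 41.7 to 45.5 in KO and 38.1 to 41.1 in WT, the 5 of 6 fat markers to 573 to 920 and 773 to 1531, and the 7 gut epithelium markers to 46.1 to 51.2 and 46.2 to 47.4. All erythroid values were dim, at 2.11 to 3.95. Klf1 differed by 0.47 (limma adjusted p 0.225), and Alas2, Hba-a1 and Slc4a1 by 0.04, 0.0 and -0.04. Hba-a1, the fat markers Cidec and Lep, and the gut markers Fabp2, Cdx2, Lgr5, Olfm4 and Muc2 had means under the table's median. Acinar markers summed to 126046 to 127158 in KO and 128191 to 128600 in WT, and the 7 of 8 islet markers to 10864 to 12164 and 12083 to 13107. The acinar sums are mostly Cpa1, Ctrb1, Cela1, Cela2a, Cel and Prss2, at 14.26 to 14.52. These lay near the maximum of each sample, 14.54 to 14.57, so that a difference between their sums says little about acinar RNA. The dimmer acinar markers Ptf1a and Bhlha15 differed by -0.56 (limma adjusted p 0.519) and -0.18. By limma, 0 of the markers passed the threshold. Their part in the results was not tested.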

How the data were processed

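The authors deposited log2 values, 1 for each probe set and sample. Per the submitters' processing notes, RMA of the affy package produced them, a method that removes background, gives all arrays the same distribution and combines the probes of a set, which hides any shift common to most genes. Its versions, its settings and a genome build were not given in the sources used here. Of 45101 probe sets, 64 controls were left out. Of all probe sets 34958 carried 1 gene symbol in the platform annotation, 932 several and 9211 none. Through Entrez identifiers 34754 symbols were updated (RefSeq, GRCm38.p6).

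KO minus WT was fitted for every probe set over all 6 samples by limma 3.58.1 (lmFit, eBayes; R 4.3.3), two-sided and with no covariate. Benjamini-Hochberg adjustment ran over 45037 probe sets, with a threshold of 0.05. The fit was tested on simulated data. The genes and lists were chosen with earlier results of these data known, so no p is given for a list. Values of every sample are given for 11 preset genes, for each gene with an unadjusted p under 0.05 and for each with groups apart, while values given for others were chosen after they were seen. Figures were drawn with matplotlib 3.10.9. The number of arrays limits the precision.

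Alternatives were a second quantile normalization, equal medians, removal of dim probe sets, a variance trend, sample weights, the replicate number as a block, each sample left out, averaging a gene's probe sets, leaving out suffixes _x_at and _s_at, an adjusted p under 0.1 and Xist as a covariate.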

Additional observations from a re-analysis of the deposited data

How the results depend on the processing

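Under all 16 alternatives 0 of the measured genes passed the threshold by limma, and under the 15 that gave a median it stayed below 0, from -0.25 to -0.08. The alternatives for the counts of lower genes were chosen after seeing the data. With samples left out in turn the count of genes lower at an unadjusted p under 0.05 ran from 2 to 13. The count with groups apart ran from 8 to 15, the latter reached without KO replicate 1, with 14 without WT replicate 3. The Xist covariate gave 3 for the first count, and averaging a gene's probe sets gave 5 for the second. Smaller groups come apart more easily, so a rise of the second count cannot be read as a larger difference. No share of all genes is given beside it for smaller groups, nor beside the 13, nor beside the 5 with averaged probe sets. Of all probe sets, 44 passed with all samples, 16 to 41 with a sample left out, 76 at an adjusted p under 0.1 and 22 with Xist as a covariate, and with gene means no count of probe sets exists. Fits with fewer samples or a covariate have less power. The sign changed for Plk1, to 0.02 after the second quantile normalization, 0.01 with sample weights and 0.04 with Xist, and it ran from -0.04 to 0.07 with a sample left out. It changed for Aurka, to 0.01 with Xist, and ran from -0.23 to 0.00 with a sample left out. The cause was not tested. With the replicate block 11 genes were lower at an unadjusted p under 0.05, and 33 probe sets passed in the whole table, and the block changed no call of the genes described. No share of all genes at that unadjusted p is given for the block fit, so the 11 cannot be set against a background. Whether samples of the same number share more than a number cannot be told from so few pairs. The correlations of their deviations were 0.1883, -0.0308 and -0.0815 for replicates 1, 2 and 3. Those between samples of different numbers ran from -0.157 to 0.1846. Levels near or under the table's median limit what can be seen for the dim genes, and 9 of the 36 genes had a mean under it.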
